A study of Danio rerio with 6 samples.

Results

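The genes described here are zebrafish genes that Ensembl names znf followed by a number. Members were taken by symbol from the Ensembl rows of the count tables (capitals or not), with 10 or more counts summed over the libraries, and the FZNF gene models that the study itself annotated were left out. The rule gave 157 members among 35218 counted features, of which 32099 were Ensembl genes. The name table held 315 znf-named identifiers. Of these, 173 had a row in the count tables, and 16 of the 173 had fewer than 10 counts, 5 of them with none. The missing rows were uneven. Of 175 identifiers with a symbol of 4 digits, 56 had a row, so that most of that class has no Ensembl row in the counts. The study reports that Ensembl already held a part of the FZNFs. Which 4-digit identifiers are FZNFs, or were counted under an FZNF model, was not analysed here. Among the members, 52 have a symbol of 4 digits (znf1146, for example) and 105 have 1 to 3 digits, many of them numbered after a human ortholog. The rule uses the name and the summed count alone, not the difference between conditions.

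The series compared Tübingen zebrafish embryos injected at the zygote stage with 4.5 ng of a translation-blocking morpholino oligonucleotide (MO) designed against FZNF transcripts, or with the same amount of a scrambled MO, a mix of random sequences. FZNFs are the zinc finger genes of cyprinid fish whose proteins begin with the FiNZ domain. Each condition had 3 libraries of poly(A) RNA from pooled whole embryos, collected at shield stage, 6 h after fertilization. FZNF MO and scrambled MO injections were made in 3 pairs, pairs 1 and 2 collected on 12 May and pair 3 on 17 May. All analysed embryos had been injected. An MO of this kind stops translation of its targets, so their transcript counts do not measure the knockdown.

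C2H2 zinc finger proteins fold short peptide loops around zinc ions, and tandem fingers read successive bases of DNA or RNA. Many znf genes encode transcription factors and corepressors, but some members of the name class bind RNA, ribosomes or the cytoskeleton, and some carry zinc-binding folds of other kinds. In fish, as in mammals, the numbered zinc finger genes include large families of near copies as well as conserved single genes with known orthologs.

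Library totals ran between 16306069 and 20567549 counts, and 17804 features passed a filter on low counts and were tested, 15309 of them Ensembl genes. Of 28 rows for markers of shield-stage tissues (germ ring and organizer, endoderm, ventral and animal cells, enveloping layer, yolk syncytial layer, germ plasm) and of genome activation, 27 were above 1 CPM (counts relative to library size on the usual CPM scale, adjusted here by trimmed-mean-of-M-values factors, TMM) in all 6 libraries, the exception being mxtx2, a yolk syncytial gene, at a lowest value of 0.312 CPM. By the call rule used below, 3 of these 28 rows differed between conditions, where 4.66% of all Ensembl genes were called. Higher with the FZNF MO were vent (log2 fold change 0.74 for FZNF MO over scrambled MO, adjusted p = 0.0084) and pou5f3 (0.63, adjusted p = 0.0206). Lower was foxa2 (-0.78, adjusted p = 0.0353). The part of these markers in the values of the znf-named genes was not tested. Of 10 rows for markers of later tissues, 6 stayed under 1 CPM in every library and the highest value was 4.52 CPM, for myod1. This gene had 0.24, 0.06 and 1.14 CPM with the FZNF MO, against 1.26, 4.52 and 2.01 CPM with the scrambled MO. Its groups did not overlap, but it was not called (log2 fold change -2.58, adjusted p = 0.113 by edgeR's quasi-likelihood test). Whether embryo stage differed between conditions was not tested here. The study set these libraries beside published samples of nearby stages and reported that they grouped with those of shield stage. Because the libraries are whole embryos, fewer cells that express a gene and less RNA per cell cannot be told apart.

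The znf-named genes had no common direction. Together they took 0.529% ± 0.0107 of the counts in FZNF MO libraries and 0.511% ± 0.0145 in scrambled MO libraries (SD, n = 3 each). The share was 0.541%, 0.528% and 0.519% in FZNF MO pairs 1, 2 and 3, against 0.494%, 0.518% and 0.521% in the scrambled MO libraries of the same pairs, so that the groups overlapped. The 684 FZNF models, counted in the same libraries, took 0.984% ± 0.253 with the FZNF MO and 0.510% ± 0.0402 with the scrambled MO (SD, n = 3 each), with no overlap between the groups.

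Of the 157 members, 144 passed the filter. Their log2 fold changes (FZNF MO over scrambled MO, from edgeR's quasi-likelihood fit with the pair as a block) had a median of -0.00088, with 72 above 0 and the middle of the distribution between -0.36 and 0.32. Over all Ensembl genes tested the median was -0.02. A gene was called where its Benjamini-Hochberg adjusted p over all tested features was under 0.05 and its absolute log2 fold change was 0.32 or more. By this rule 3 members were higher with the FZNF MO (2.08%, against 2.38% of all Ensembl genes) and 3 were lower (2.08%, against 2.28%). The 6 called members are 4.17% of those tested, against 4.66% of all Ensembl genes. At an unadjusted p under 0.05 there were 13 members with higher and 12 with lower values, 25 of 144, where 19.1% of all Ensembl genes met that criterion.

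**Figure D1:**
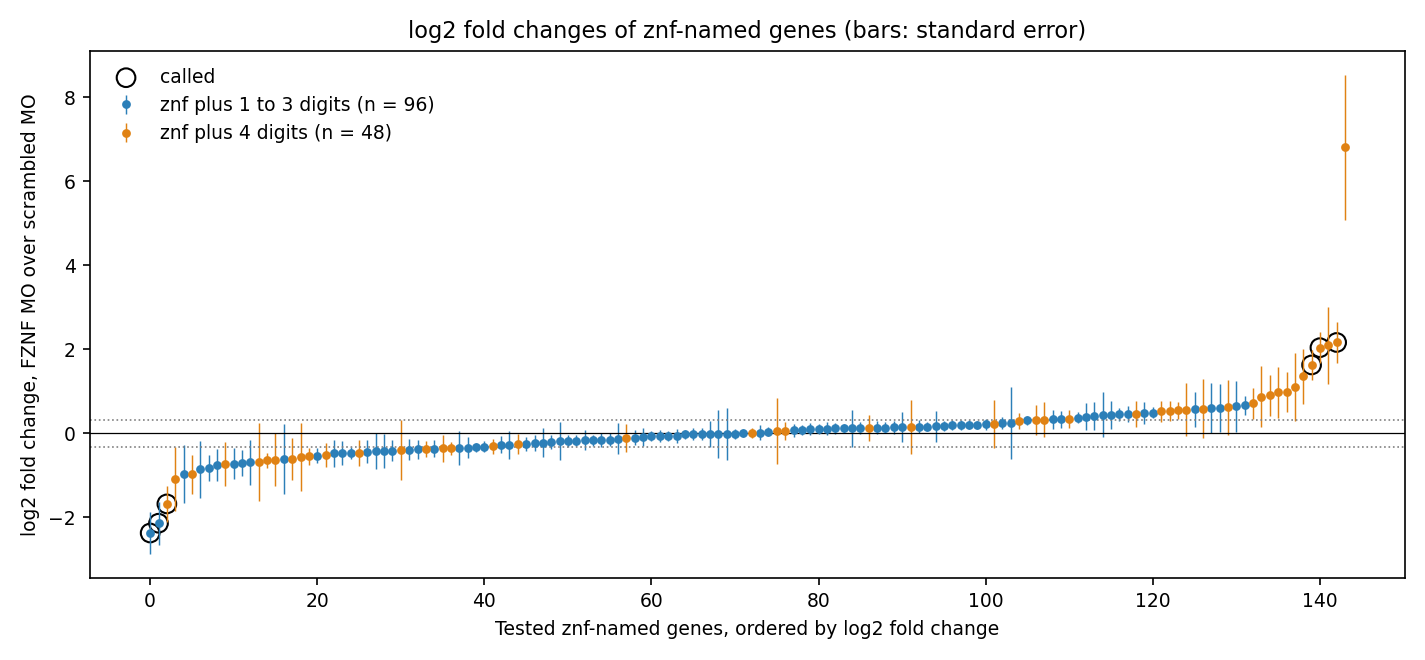
Log2 fold change (FZNF MO over scrambled MO) of the 144 tested znf-named genes, ordered from lowest to highest, with bars for the standard error and dotted lines at -0.32 and 0.32. Circles mark the 6 called genes. All 7 genes above a log2 fold change of 1 have 4-digit names. Of these, znf1170, znf1180 and znf1183 were above the filter level in all FZNF MO libraries but not in all scrambled MO libraries. Beyond 1 in either direction lay 11 of the 144, against 9.41% of all Ensembl genes. The point at the far right, znf1183, has no count in any scrambled MO library, so that its fitted value depends on the prior count.

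The 3 genes that were higher with the FZNF MO all have 4-digit names, and no function is attributed to them here. For znf1123 the FZNF MO libraries of pairs 1, 2 and 3 had 5.21, 6.12 and 6.24 CPM, against 1.95, 2.21 and 1.55 CPM in the scrambled MO libraries. All FZNF MO values lay above all scrambled MO values, and the log2 fold change was 1.63 (standard error, SE, 0.35, adjusted p = 0.0206). For znf1146 the values were 3.33, 5.81 and 3.90 CPM with the FZNF MO, against 1.43, 0.63 and 0.86 CPM with the scrambled MO. The groups again did not overlap (log2 fold change 2.16, SE 0.50, adjusted p = 0.0267), the widest pair being pair 2 at a log2 ratio of 3.15 and the narrowest pair 1 at 1.20. For znf1150 the FZNF MO libraries had 1.74, 11.9 and 9.85 CPM, against 0.80, 2.15 and 2.01 CPM in scrambled MO libraries. Here the groups overlapped, because pair 1 was low in both conditions, while the FZNF MO library was the higher one in 3 of 3 pairs (log2 fold change 2.04, SE 0.37, adjusted p = 0.0084).

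The 3 genes that were lower with the FZNF MO were a copy of ZNF395, ZNF341 and znf1174. ZNF395, a transcription factor induced by hypoxia in human cells, has 2 zebrafish identifiers under the same symbol. The called one (ENSDARG00000024195) had 2.22, 0.19 and 0.78 CPM in FZNF MO pairs 1, 2 and 3, against 9.52, 3.26 and 2.35 CPM in the scrambled MO libraries. Its groups did not overlap, although the highest FZNF MO value and the lowest scrambled MO value nearly met, and the log2 fold change was -2.38 (SE 0.50, adjusted p = 0.0172). Its FZNF MO count in pair 2 was 3, against 62 with the scrambled MO. It was above the low-count filter level in all scrambled MO libraries but not in all FZNF MO libraries. The other copy (ENSDARG00000060113) had 247, 190 and 167 CPM with the FZNF MO, against 184, 163 and 170 CPM with the scrambled MO, with overlapping groups (log2 fold change 0.20, SE 0.12, adjusted p = 0.362). Whether the copies differ from each other in response was not tested.

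ZNF341, which in humans activates transcription of STAT3, had 0.72, 0.81 and 0.78 CPM with the FZNF MO, against 4.93, 1.89 and 4.13 CPM with the scrambled MO. All FZNF MO values were below all scrambled MO values, and the spread came from the scrambled MO side (log2 fold change -2.15, SE 0.52, adjusted p = 0.0331). For znf1174 the libraries had 1.35, 1.25 and 4.14 CPM with the FZNF MO, against 7.29, 6.15 and 5.62 CPM with the scrambled MO. The groups did not overlap, but pair 3 differed least, at a log2 ratio of -0.44 against -2.41 and -2.27 in pairs 1 and 2 (log2 fold change -1.68, SE 0.44, adjusted p = 0.0454).

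**Figure D2:**
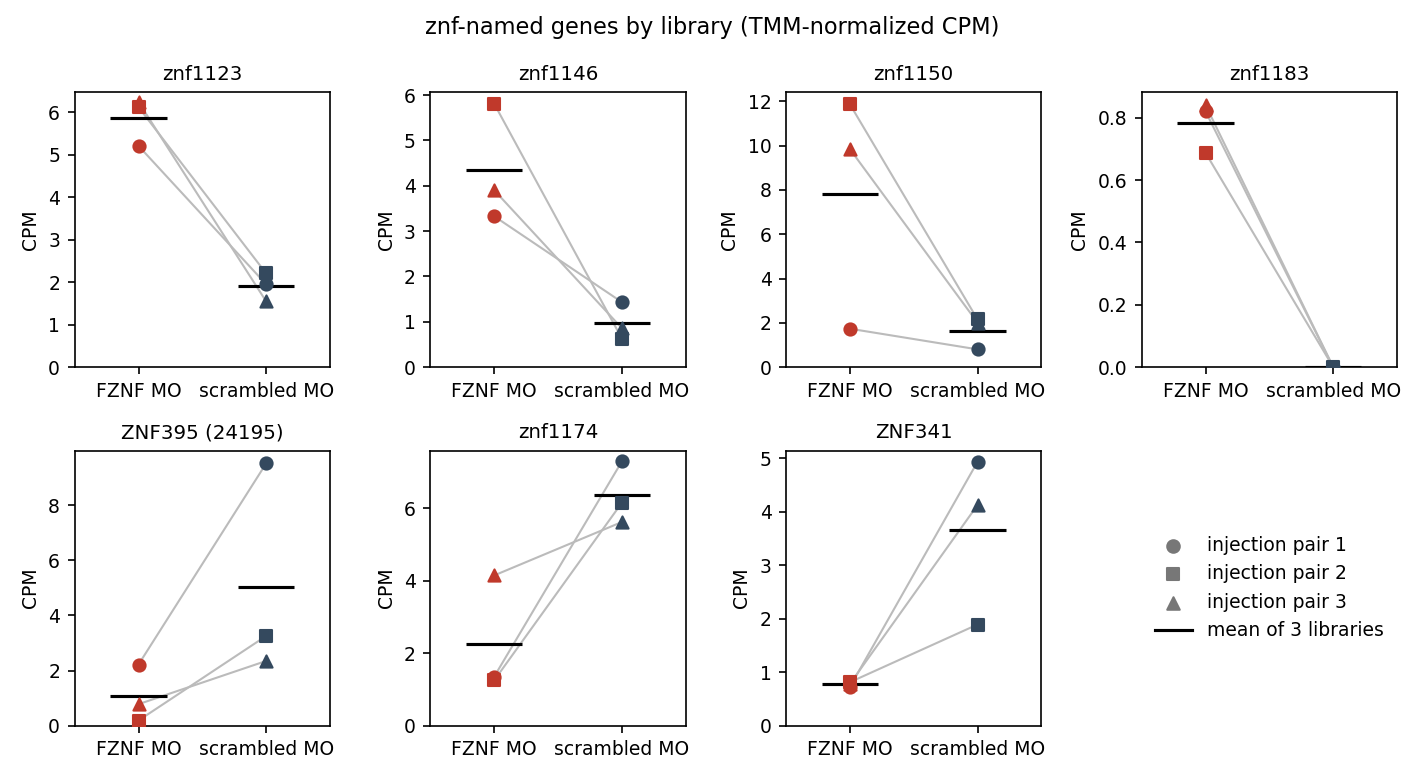
TMM-normalized CPM in each library for the called znf-named genes and znf1183, FZNF MO on the left and scrambled MO on the right of each panel. Symbols mark the injection pair, grey lines join the libraries of a pair and black bars are the means of 3 libraries. The groups overlap for znf1150 alone among the 7 genes, through the low values of pair 1.

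These calls rest on few counts and on the block. The totals over 6 libraries were between 235 (ZNF341) and 480 (znf1150). None of the 6 was called without the block for the pair, with the collection day in its place, or when pair 2 was left out. In these fits few genes of any kind were called, at 0.37%, 0.30% and 0.42% of all Ensembl genes in that order, against 4.66% in the main fit. The fitted log2 fold changes stayed of similar size without the block, at 2.15 for znf1146, 2.23 for znf1150, 1.62 for znf1123, -2.21 for the ZNF395 copy, -2.23 for ZNF341 and -1.50 for znf1174. Without pair 2 43 Ensembl genes were called higher and 23 lower, in place of 365 and 349. Without pair 1 the 3 higher genes were called and none of the lower ones was, with 2.80% of all Ensembl genes called. Without pair 3 there were 5 higher and 4 lower calls, 5 of which were among the original 6. ZNF341 was the one not called then. In that fit 11.7% of all Ensembl genes were called.

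The 3 uncalled members with the smallest p were znf1183, znf185 and znf1005. Some alternative fits did call them. DESeq2 called znf185 higher and znf1005 lower, the fit with no low-count filter called all 3, and the fit without pair 3 called znf185. In these fits 6.68%, 6.28% and 11.7% of all Ensembl genes were called, in that order. For znf1183 there were 17, 11 and 14 counts in the FZNF MO libraries of pairs 1, 2 and 3 and no count in any scrambled MO library, the only tested member with that pattern. Against a floor of 3 counts for the whole scrambled MO group, the summed FZNF MO counts were 14.1-fold higher relative to library size. This figure makes no allowance for spread among the FZNF MO libraries. The gene was not called (adjusted p = 0.0513 by edgeR's quasi-likelihood test), and it passed the filter on the FZNF MO libraries alone. For znf185, which in mammals encodes a LIM domain protein of the actin cytoskeleton and not a C2H2 factor, the values were 430, 314 and 257 CPM with the FZNF MO, against 246, 208 and 244 CPM with the scrambled MO. Its groups did not overlap, but pair 3 differed by a log2 ratio of 0.07 where pairs 1 and 2 differed by 0.80 and 0.60 (log2 fold change 0.49, SE 0.13, adjusted p = 0.0556). For znf1005 the values were 20.9, 21.6 and 6.96 CPM with the FZNF MO, against 31.0, 30.5 and 13.0 CPM with the scrambled MO. Pair 3 was low in both conditions, so that the groups overlapped while the FZNF MO library was lower in 3 of 3 pairs (log2 fold change -0.65, SE 0.18, adjusted p = 0.0624).

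The 4-digit genes and the genes of 1 to 3 digits differed in how widely their values scattered. Of the 48 tested 4-digit genes, 3 were called higher (6.25%, against 2.38% of all Ensembl genes) and 1 lower (2.08%, against 2.28%), with a median log2 fold change of 0.18 and quartiles of -0.41 and 0.64. At an unadjusted p under 0.05, 7 of them had higher and 4 had lower values. Of the 96 others, none was called higher and 2 were called lower (2.08%), with a median of -0.02 and quartiles of -0.33 and 0.18. By edgeR's quasi-likelihood test 6 of them had higher and 8 had lower values at an unadjusted p under 0.05, a level that 19.1% of all Ensembl genes met. DESeq2 called 1 of the 96, znf185, higher, where it called 526 of 15309 Ensembl genes higher. Whether the classes differ in response was not tested. The precision was not the same in both, since the median standard error was 0.43 for 4-digit genes and 0.19 for the others, and the median total was 374 and 2181 counts. Some 4-digit genes were above the filter level of 0.58 CPM in all libraries of 1 condition but not of the other. These were znf1169, znf1170, znf1175, znf1180, znf1183 and znf1184 for the FZNF MO, and znf1008, znf1029 and znf1176 for the scrambled MO. The class medians and counts describe the tested genes only.

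The number of genes whose libraries did not overlap between conditions was read against the whole transcriptome. All FZNF MO libraries were above all scrambled MO libraries for 7.51% of Ensembl genes and below them for 9.08%. Among the 144 members the counts were 16 above (11.1%) and 13 below (9.03%). The 4-digit genes had 12 above (25%) and 2 below (4.17%), and the others had 4 above (4.17%) and 11 below (11.5%). Among the 12 are znf1183 and znf1169, which were above the filter level in all FZNF MO libraries but not in all scrambled MO libraries. These counts are a description of the tested genes only. In 20 of the 48 4-digit genes (41.7%) the FZNF MO library was higher in all 3 pairs, and in 9 (18.8%) it was lower in all 3, where the shares over all Ensembl genes were 19.6% and 22.8%. The 20 include znf1169, znf1180 and znf1183, which were above the filter level in all FZNF MO libraries but not in all scrambled MO libraries. The part of the filter in this share was not tested. Summed over the class, the groups overlapped. The 4-digit genes took 0.0442% ± 0.00538 of the counts with the FZNF MO and 0.0449% ± 0.00503 with the scrambled MO (SD, n = 3 each). This sum gives most weight to abundant genes. The 4-digit gene with the most counts, znf1035, had a total of 16304, against a median total of 263 over the 52 4-digit members. For znf1035 the values were 138, 161 and 152 CPM with the FZNF MO, against 113, 190 and 158 CPM with the scrambled MO, and its groups overlapped. The other 4-digit gene below the scrambled MO libraries without overlap, beside znf1174, was znf1124, at 11.8, 18.1 and 16.3 CPM with the FZNF MO, against 22.8, 21.4 and 22.5 CPM with the scrambled MO (adjusted p = 0.138).

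Set beside other zinc finger genes, the znf-named genes had 4.17% of tested members called, against 3.88% of Ensembl genes of other C2H2 families and 35.7% of FZNF models, differences that were not tested. Among the 103 tested genes of other families (klf, zic, sall, prdm, zbtb and the like), 2 were called higher and 2 lower, with a median log2 fold change of 0.06. Among 518 tested FZNF models 160 were called higher and 25 lower, with a median of 0.62. The counting was done with both annotations in 1 table and with multimapping reads kept, so that reads from near-identical fingers can be divided between a 4-digit gene and its copies or an FZNF model. Which members overlap or share reads with an FZNF model was not analysed here, and its part in the values of the 4-digit genes was not tested.

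**Figure D3:**
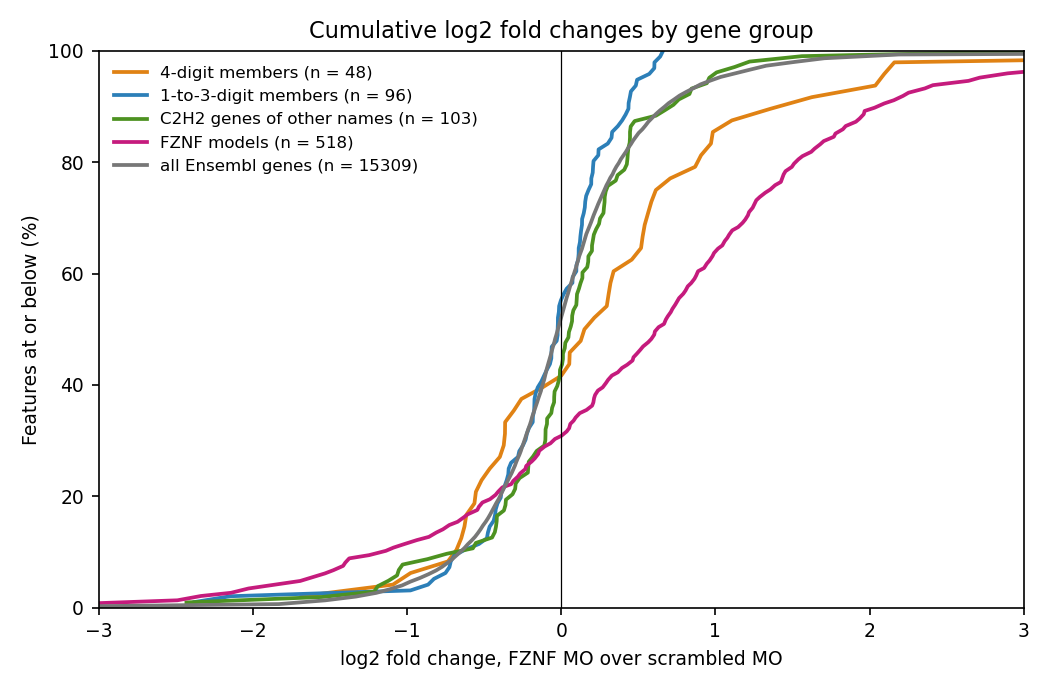
Cumulative percentage of features at or below each log2 fold change (FZNF MO over scrambled MO) for 4-digit znf-named genes, znf-named genes of 1 to 3 digits, C2H2 genes of other names, FZNF models and all Ensembl genes, with the horizontal axis drawn between -3 and 3. The curve of the 1 to 3 digit genes runs close to that of all Ensembl genes (medians -0.02 and -0.02), and that of the 4-digit genes is wider than these (median 0.18). That of the FZNF models lies furthest to the right at the median (0.62). Lower down it crosses the others, and it reaches 10.2% at -1.14, further left than the others at that height.

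Neighbouring 4-digit genes held values in both directions. In the gene order of the GRCz12tu RefSeq assembly, which is not the build the counts were made on and was used for neighbourhood only, 23 of the 52 4-digit genes could be placed and 16 of them lay on the same chromosome, in 5 groups within which successive members were at most 10 genes apart. The largest of these groups held 10 members, and others held as few as 1. Of these 16, 14 were tested, 8 with a positive and 6 with a negative log2 fold change (median 0.22). Of the 23 placed 4-digit genes, 0 lay on chromosome 4 of that assembly. The study places almost all zebrafish FZNF genes on the long arm of that chromosome. The 4-digit genes that could not be placed are not covered by this, and sharing of reads with FZNF models was not tested. The largest group held both directions. In it znf1160 (0.98, SE 0.48), znf1159 (1.36, SE 0.66), znf1154 (0.30, SE 0.20) and znf1179 (0.54, SE 0.21) had positive log2 fold changes that were not called. The same held for znf1169 (0.87, SE 0.73), znf1184 (0.15, SE 0.65) and znf1167 (0.32, SE 0.42). Only znf1174 and znf1156 had negative values among the tested members of this group. Of these, znf1174 was called lower, and its next placed neighbour znf1156 was at -0.36 (SE 0.16, adjusted p = 0.223). For znf1179 the values were 13.9, 16.6 and 19.9 CPM with the FZNF MO, against 9.35, 13.7 and 11.6 CPM with the scrambled MO, and the groups did not overlap.

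Of 24 members with known roles in chromatin and transcription, 23 were tested. The called copy of ZNF395 was lower and none was called higher (4.35% called, against 4.66% of all Ensembl genes), with a median log2 fold change of -0.03. By edgeR's quasi-likelihood test 1 had higher and 2 had lower values at an unadjusted p under 0.05 (19.1% of all Ensembl genes did). DESeq2 called none of the list higher, where it called 526 of 15309 Ensembl genes higher. ZNF217, a subunit of LSD1 and CoREST corepressor complexes in mammals, had 142, 141 and 139 CPM with the FZNF MO, against 160, 184 and 192 CPM with the scrambled MO. Its groups did not overlap and its FZNF MO libraries were within 3 CPM of each other, but the change was not called (log2 fold change -0.34, SE 0.11, adjusted p = 0.0979). ZNF367 averaged 26.2 ± 2.62 CPM with the FZNF MO and 19.9 ± 7.03 CPM with the scrambled MO (SD, n = 3 each, log2 fold change 0.45, adjusted p = 0.22), the scrambled MO spread coming from pair 2. ZNF76, a relative of ZNF143, averaged 2.52 ± 0.944 and 4.07 ± 1.13 CPM with the FZNF MO and the scrambled MO (log2 fold change -0.73, adjusted p = 0.32).

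ZNF143 itself, an activator of small nuclear RNA genes in mammals, has 2 zebrafish copies whose fitted values had opposite signs. The first (ENSDARG00000012887) had a log2 fold change of 0.13 (SE 0.15) and the second (ENSDARG00000041581) one of -0.25 (SE 0.17), neither called. In the second the FZNF MO values of 21.2, 21.4 and 24.9 CPM all lay below the scrambled MO values of 27.2, 25.8 and 26.9 CPM. Both copies of ZNF281, a regulator of pluripotent cells in the mouse, had log2 fold changes near 0, at 0.07 (SE 0.11) and -0.03 (SE 0.10).

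Of 13 members with roles in RNA metabolism, ribosomes or mitosis, 12 were tested and none was called, where 4.66% of all Ensembl genes were, with a median log2 fold change of -0.01. By edgeR's quasi-likelihood test 1 had higher and 1 lower values at an unadjusted p under 0.05, which 19.1% of all Ensembl genes met. DESeq2 called none of the list, against 6.68% of all Ensembl genes. ZNF106, an RNA-binding protein needed by motor neurons in the mouse, had 103, 114 and 105 CPM with the FZNF MO, against 78.4, 86.5 and 97.4 CPM with the scrambled MO, without overlap (log2 fold change 0.30, SE 0.12, adjusted p = 0.177). ZNF326, a part of the complex that couples transcript elongation to splicing in human cells, had 8.39, 2.75 and 5.34 CPM with the FZNF MO, against 9.18, 7.83 and 8.08 CPM with the scrambled MO. Its groups overlapped, and the log2 ratios of the pairs were -0.13, -1.50 and -0.59 (fitted -0.72, SE 0.31, adjusted p = 0.226). ZNF598, the ubiquitin ligase that marks collided ribosomes, averaged 18.01 ± 4.86 CPM with the FZNF MO and 23.0 ± 4.68 CPM with the scrambled MO (SD, n = 3 each, adjusted p = 0.333).

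Of 16 members with roles in patterning and differentiation, 13 were tested and none was called (background 4.66%), with a median log2 fold change of -0.21. At an unadjusted p under 0.05 in edgeR's quasi-likelihood test there were 1 with higher and 1 with lower values (background 19.1%). DESeq2 called none (background 6.68%). ZNF703, a corepressor that acts in hindbrain patterning in zebrafish, had 35.7, 40.9 and 40.3 CPM with the FZNF MO, against 49.97, 66.4 and 46.6 CPM with the scrambled MO. The groups did not overlap (log2 fold change -0.46, SE 0.15, adjusted p = 0.0922). Its relative ZNF503 overlapped between conditions, with a log2 fold change of -0.21 (SE 0.17). znf750, a regulator of epidermal differentiation in humans, had 26.6, 31.9 and 40.7 CPM with the FZNF MO, against 18.4, 24.8 and 29.97 CPM with the scrambled MO. The log2 ratios of the pairs were alike and positive (0.53, 0.36 and 0.44), while the groups overlapped (adjusted p = 0.132). Lower values without a call were found for znf408 and the ZNF513 copy ENSDARG00000019961, whose human orthologs are linked to retinal disease, at log2 fold changes of -0.48 (SE 0.28) and -0.39 (SE 0.25). ZNF319, which is in none of the role lists, averaged 12.7 ± 4.75 CPM with the FZNF MO and 7.90 ± 2.198 CPM with the scrambled MO (SD, n = 3 each, log2 fold change 0.66, adjusted p = 0.123).

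**Figure D4:**
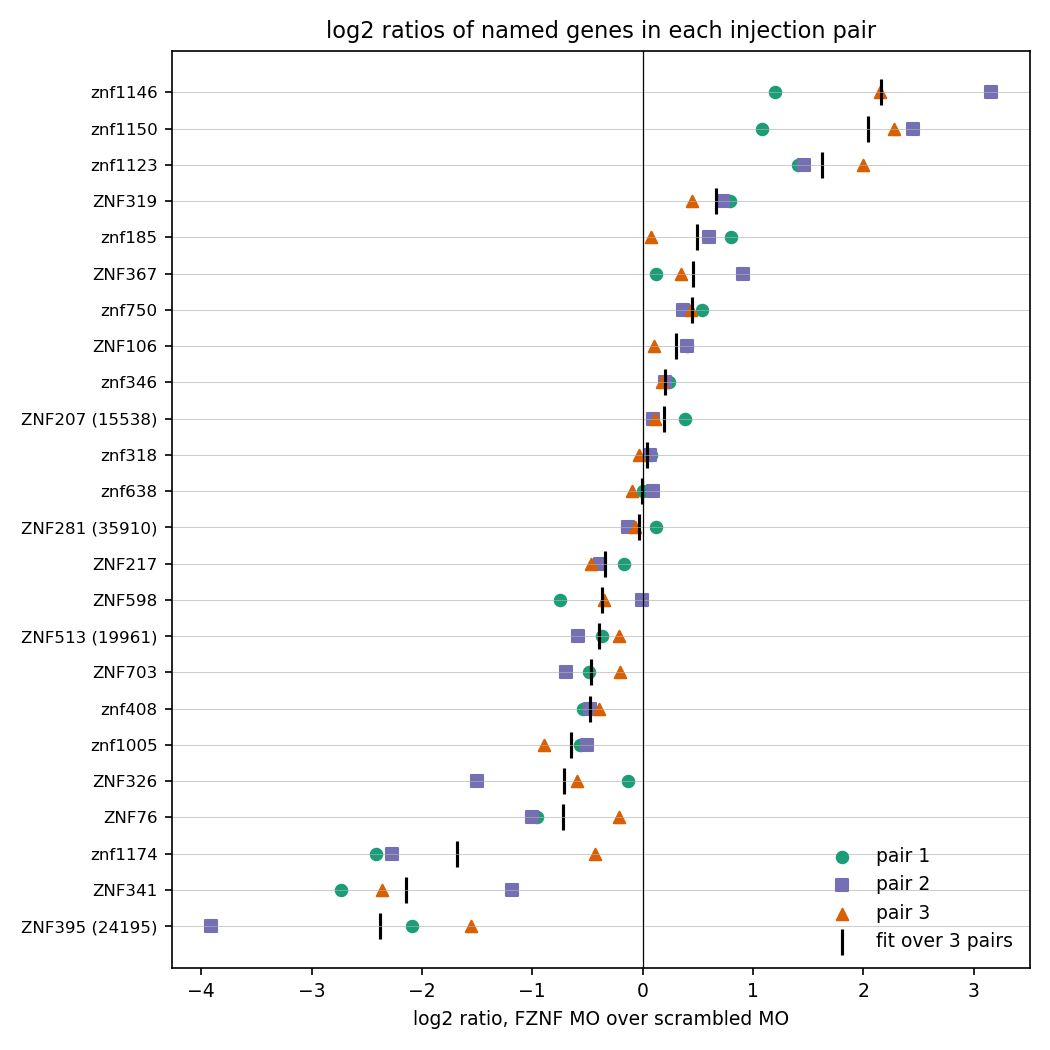
Log2 ratio of FZNF MO over scrambled MO in each injection pair (symbols) and the fitted log2 fold change (black bars) for 24 znf-named genes chosen by call, role list, abundance or smallest p. The pairs lie close together for znf346 (0.24, 0.20 and 0.18) and further apart for znf185 (0.80, 0.60 and 0.07) and for znf1146 (1.20, 3.15 and 2.15).

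The 6 members with the highest CPM, znf185 among them, had standard errors of 0.10 to 0.13. None of the 6 was called in the main fit, where 4.66% of all Ensembl genes were. znf346, whose mammalian ortholog binds double-stranded RNA, averaged 480 ± 63.4 CPM with the FZNF MO and 417 ± 63.7 CPM with the scrambled MO (SD, n = 3 each). The spread was shared by the pairs, since the log2 ratios were 0.24, 0.20 and 0.18 in pairs 1, 2 and 3 (log2 fold change 0.21, SE 0.10, adjusted p = 0.258). znf638, a nuclear protein that silences unintegrated retroviral DNA in human cells, averaged 363 ± 46.3 CPM with the FZNF MO and 362 ± 28.8 CPM with the scrambled MO, with a log2 fold change of -0.0019 (SE 0.10). znf318, which takes part in alternative expression of immunoglobulin D in mouse B cells, averaged 214 ± 4.11 and 209 ± 5.37 CPM with the FZNF MO and the scrambled MO (log2 fold change 0.04, SE 0.10). One of 2 copies of ZNF207, a spindle and kinetochore protein that carries BUB3 (ENSDARG00000015538), averaged 223 ± 10.1 CPM with the FZNF MO and 195 ± 20.8 CPM with the scrambled MO (log2 fold change 0.19, SE 0.11, adjusted p = 0.353). The other copy was at -0.02 (SE 0.14).

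The members also varied between injection pairs. For each tested member the mean log2 level of the FZNF MO and scrambled MO libraries was taken in each pair, and the range of these means over the 3 pairs had a median of 0.53. No comparison with the difference between conditions is drawn from it, since a range over 3 values and a difference of group means do not scale alike. Scrambled MO libraries alone differed by more than 1 on the log2 scale in 35 members, and FZNF MO libraries in 37. Both libraries of pair 3, the pair of 17 May, were below the other 4 in 11 members and above them in 10, together 14.6%, against 16.1% of all Ensembl genes. Collection day, clutch and injection cannot be told apart in this comparison. znf1005 was the member furthest down in pair 3, at -1.42 on the log2 scale relative to the pairs of 12 May, and znf996 the one furthest up, at 1.28.

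The remaining 13 members had too few counts to test, with totals between 12 (znf1002) and 68 (ZNF821). Just above the minimum of 10 were znf1002 and then znf488 and znf541 with 16 counts each, and just below it were znf831 with 8 and ZNF366 with 7, each with all counts in 1 library. Of the 144 tested members, 126 were above the filter level of 0.58 CPM in all 6 libraries, 7 in all FZNF MO libraries but not all scrambled MO libraries, 7 the other way round and 4 in neither group as a whole. The 13 untested members were removed by this filter, and none of them was called when the fit was repeated without it. In that fit 6.28% of Ensembl genes were called.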

How the data were processed

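Reads of 6 strand-specific poly(A) libraries were checked with FastQC 0.11.9 and mapped by the authors to GRCz11 with STAR 2.7.5a, keeping multimapping reads, and counted with TEcount over Ensembl genes, FZNF models and transposable element families. The deposited values are raw counts per feature and were used as deposited. Neither the strand setting of the counting nor the Ensembl release is stated in the sources used here. Symbols came from an Ensembl name table, and 16 members share 8 symbols and are named by identifier. Neighbourhoods used RefSeq on GRCz12tu, where 104 members matched. No protein or promoter sequence was analysed here.

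Counts were filtered with edgeR's filterByExpr (10 counts at the median depth in 3 libraries), scaled by TMM and tested in edgeR 4.0.16 (R 4.3.3) with pair and condition as terms, with Benjamini-Hochberg adjustment over 17804 features. The calls are those of the study's thresholds. Each standard error is the log2 fold change over the root of its F statistic. Log2 ratios within a pair used a prior count of 0.5. The Methods describe paired injections, so the pair was a block. Deviations from the group means correlated within injection pairs (r = 0.45, 0.33 and 0.24), against -0.32 to 0.06 between pairs. Centring each group on its own mean ties the between-pair values to the within-pair values, so their contrast is not separate evidence for the block. P-values measure variation over 3 pairs of pooled embryos, not between embryos. Standard errors and floors for single genes do not cover the division of reads between near copies.

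Members and lists were chosen with earlier results of these data known. The named genes were the called members, 4 per role list and 6 of the uncalled by smallest p, 6 by highest CPM and those next to the count minimum. Others named (second copies of shared symbols, znf1035, znf1124, ZNF503, znf996, neighbours) were chosen after their values were seen. Alternatives were no block, collection day, other scaling factors, DESeq2 1.42.0, other filters and thresholds, and each pair left out. The test was tried on simulated counts, which held no pair effect and so cannot speak to the dependence of the calls on the block.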

Additional observations from a re-analysis of the deposited data

Results flagged for a closer look

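For znf318 the pair of 17 May had a log2 ratio of -0.033 (FZNF MO over scrambled MO), while both pairs of 12 May had positive ratios of 0.077 and 0.062. It was singled out because every pair of one collection day lay on the other side of 0 from the pair of the other day. The difference was not tested, 1 day holds a single pair, and all 3 ratios are smaller than the standard error of the fitted value (0.10).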

How the results depend on the processing

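As reported, 3 members were called higher and 3 lower, and among 4-digit genes 3 higher and 1 lower. With no replicate block, or with collection day in place of the pairing, all 4 counts were 0, when 34 or 29 Ensembl genes were called higher and 23 or 17 lower. In edgeR's test 6 or 5 members then had higher and 7 or 8 lower values at an unadjusted p under 0.05. With no low-count filter there were 5 higher and 5 lower (2 of the lower with 4-digit names), when 6.28% of Ensembl genes were called. The stricter filter (50 counts in 3 libraries), which left 106 members, gave 2 higher and 1 lower, when 6.82% of Ensembl genes were called. It removed znf1150, the ZNF395 copy and ZNF341 before the fit, so these were not tested there. The restriction to lower-case symbols also left 1 lower, since it drops the ZNF395 copy and ZNF341 by name. DESeq2 called 4 higher and 4 lower, and 2 lower among 4-digit genes, when 6.68% of Ensembl genes were called. TMM factors from Ensembl genes alone left 0 lower among 4-digit genes, znf1174 having an adjusted p of 0.0529 (0.0005 to 0.378 over its alternatives). Leaving out a pair gave 0 to 5 higher, 0 to 4 lower, and among 4-digit genes 0 to 3 higher and 0 to 1 lower. The share of Ensembl genes called ran from 0.42% to 11.7% in these fits. The cause was not tested. RLE factors, no fold threshold and a minimum of 50 counts left all 4 counts as they were. Signs near 0 were not stable. For znf638 the log2 fold change was 0.0090 by DESeq2 and with RLE factors, 0.011 with TMM factors from Ensembl genes, 0.00083 with collection day, 0.014 with no filter, 0.0025 with no replicate block, 0.00077 with the stricter filter and -0.037 to 0.058 when a pair was left out. For the ZNF281 copy ENSDARG00000035910 it was -0.10 to 0.034 when a pair was left out. These 2 were the only ones to change sign among the 25 genes fitted under the alternatives, and signs of the other genes named were not recomputed. The low-count filter kept 13 members out of the test.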
